A study of Drosophila melanogaster with 2 samples.

Results

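The regions described here are weak candidate binding sites of homeobrain (hbn) at gene starts, ranked just below the score that the authors' conservative peak set required. They were chosen by their deposited score and position. From the list in which 107925 candidate sites of the 2 replicates were ranked against each other, 2102 entries had a score from 540 to 829, and 2095 of these lay on chromosome arms. Of those, 1112 had their summit within 500 bp of a transcript start, and 99 were dropped because a summit of the authors' conservative peak set lay within 500 bp. The remaining 1013 entries, 0.939% of the list, are the members. The score follows the global irreproducible discovery rate (IDR). It estimates, among all entries ranked at least as high, the share that fail to keep their rank between replicates. It is not a probability for a single site. The band runs from a −log10 IDR of 1.30 to one of 2.00, and the conservative set begins at a score of 830.

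The samples were whole embryos, 0 to 18 h old, of 1 Drosophila melanogaster line in which an inserted transgene expresses hbn fused to eGFP. The 2 libraries are biological replicates of a single group, and the antibody used was against GFP (the labels' antibody entry gives hbn, which carries the tag). Embryos of many stages were taken whole, so a site used in few cells and a site weakly used in many cannot be told apart. Depth is unknown, since read totals were not at hand. All intervals below are 95% intervals that cover the number of regions counted only. They are Wilson intervals for shares, Woolf intervals for odds ratios, and Mantel-Haenszel intervals for odds ratios within strata of GC content.

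The homeobrain protein belongs to the paired-like homeodomain class, whose members bind TAAT-type sequences, and hbn is known for its expression in the embryonic brain. Promoters of broadly expressed fly genes often hold the DNA replication-related element (DRE), bound by the factor DREF, or motif 1, bound by M1BP. Promoters of many developmentally controlled genes hold repeats bound by GAGA factor, the product of Trithorax-like, which is known to open chromatin.

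Sequences that recur in the results below are shown first, each in a window of 30 bases or less around a match of a member with a high signal. Capitals mark the match, and positions are on dm6 (Release 6 assembly, RefSeq copy). The first 3 hold TATCGATA, the palindromic DRE, at chr3R:18983672-18983701 (+), chr2L:1184010-1184039 (+) and chrX:15472129-15472158 (+).
snRNP-U1-C: gccgctgtgtaTATCGATAtgtttaacagc
CG5126: aatcaaagtggTATCGATAgccacgcgcag
Alg14: atcggttcagtTATCGATAgcaatggaaac
The next 3 hold GGTCACAC, the core of motif 1, at chr3R:24527985-24528014 (-), chr3L:16711778-16711807 (-) and chrX:9319225-9319254 (+).
CG6607: tttgtgctgctGGTCACACtacatacttaa
Lasp: atcgaatagatGGTCACACtgcaaagcaat
c12.1: agccgtaccacGGTCACACtgaccgatagg
The last 2 hold GAGAG, the core of the GAGA factor site, at chr3R:10885518-10885546 (-) and chr3L:20949605-20949633 (+). The stretch at fng is part of a longer GA repeat.
Leash: ttcgataaccgtGAGAGcggcggtccgat
fng: gagaaagagagaGAGAGaattccctttga

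Whole summit windows of 201 bp, on the strand of the gene with the nearest start, show how differently these promoters are built. They were taken from the 144 member windows that touch no exon and lie on the chromosomes printed here. Capitals mark every match, on either strand, to the DRE or its core TATCGA, to motif 1, to GAGAG, to the motif 5 core CAGCTG or to the motif 6 core GTATTTT. The window with the highest signal, at snRNP-U1-C (chr3R:18983674-18983874, -), is rich in A and T and holds a single DRE near its gene-proximal end. The window at RpL30 (chr2L:19009375-19009575, -) has the highest signal among those with none of these sequences.
snRNP-U1-C: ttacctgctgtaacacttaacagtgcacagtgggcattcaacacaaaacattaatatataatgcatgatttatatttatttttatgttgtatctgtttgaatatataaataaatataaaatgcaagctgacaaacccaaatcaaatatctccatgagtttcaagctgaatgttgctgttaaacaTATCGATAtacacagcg
RpL30: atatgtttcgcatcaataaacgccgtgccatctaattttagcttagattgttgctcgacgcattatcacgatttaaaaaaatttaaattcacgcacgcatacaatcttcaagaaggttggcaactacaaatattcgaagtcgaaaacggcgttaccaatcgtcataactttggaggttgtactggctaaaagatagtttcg

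In each replicate, member signals were at the median lower than those of conservative promoter peaks and higher than those of promoter entries under 540. All lay within the top 12.5% of the list's entries on chromosome arms. Signals are the enrichment values deposited with each entry, on a scale that no source states. In replicate 1 the member signals ran from 23.7 to 125.7 with a median of 32.0, and in replicate 2 from 21.4 to 75.0 with a median of 25.3. The 3192 conservative peaks within 500 bp of a start had medians of 84.1 and 53.1, and the 14966 promoter entries scored under 540 had medians of 13.1 and 11.8. These signals set the ranks behind the score, so the differences are a description. Replicate 1 was the higher of the pair in 747 of 1013 members (73.7%, 70.9 to 76.4) and in 2864 of 3192 conservative promoter peaks (89.7%, 88.6 to 90.7). The ratio of replicate 1 to replicate 2 had a median of 1.27 among members and spanned 0.392 to 5.21.

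**Figure D1:**
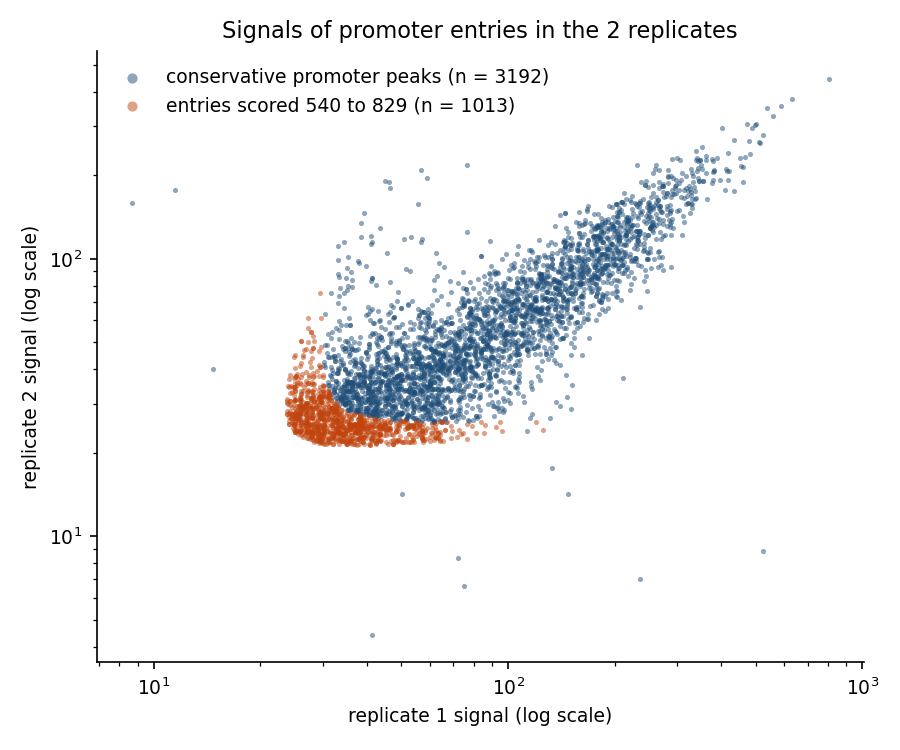
Replicate 1 signal (horizontal, log scale) against replicate 2 signal (vertical, log scale) for the 1013 promoter entries scored 540 to 829 (orange) and the 3192 conservative promoter peaks (blue). The orange points form a curved band along the lower left edge of the blue cloud, with arms in which 1 replicate is high and the other stays near its lowest values. The score comes from the ranks of both signals, so the choice by score shapes this band.

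The members with the highest entry signals were high in 1 replicate and near the floor of the band in the other. The rule favours this pattern. The score comes from the ranks of both signals, and entries high in both replicates tend to score above the band. The entry at snRNP-U1-C (FBgn0261792), whose product is a protein of the U1 splicing particle, had an entry signal of 179.0, with 125.7 in replicate 1 and 24.1 in replicate 2. At fng (FBgn0011591), which encodes the glycosyltransferase fringe that modifies Notch, the entry signal was 116.4, with 92.3 in replicate 1 and 24.8 in replicate 2. Leash (FBgn0037856) had 120.2 and 25.9. Each of these 3 was high in replicate 1 alone.

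The opposite pattern occurred too. The entry at RpL30 (FBgn0086710), a gene for a protein of the large ribosomal subunit, had 29.4 in replicate 1 and 75.0 in replicate 2. The entry at MFS10 (FBgn0030452), on the X chromosome, had 27.2 and 61.0. Pomp (FBgn0032884), which encodes the proteasome maturation protein, had 24.9 and 44.2. RpL30 and snRNP-U1-C had the lowest and the highest ratio of all members.

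Most members were more even. At Toll-6, a gene of the Toll receptor family, the signals were 31.3 in replicate 1 and 33.1 in replicate 2, and at eIF3m, a subunit of a translation initiation factor, 25.7 and 27.4. At Ten-m, which encodes a teneurin that guides neuronal wiring, they were 30.0 and 37.4. At hh, the gene for the hedgehog signal, they were 26.2 and 28.5. None of these 4 pairs differed by as much as the pair at fng. The gene hbn itself had no member at any of its starts.

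The edges of the band were no break in signal. Just inside the upper edge lay EMC4 (score 829, 84.0 in replicate 1 and 25.9 in replicate 2), Toll-6 and CG14641 (both 828). Just outside it, at 830, lay the entries at ec (36.3 and 28.0) and tRNA:Pro-AGG-1-2 (30.2 and 52.4), and another at CG30096 (56.9 and 25.9). Inside the lower edge, at 540, were in (40.8 and 21.4), RpS9 (30.7 and 21.5) and the potassium channel gene Shal (30.3 and 21.6). Just outside were MAGE (score 539, 27.6 and 22.1), Rgl (538, 25.1 and 58.9) and lncRNA:CR43334 (538, 50.7 and 21.5). Entries on both sides of an edge thus spanned similar replicate values.

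The paired replicate peaks did not always sit where the entry's own summit did. The replicate 1 summit lay a median of 32 bp from it and the replicate 2 summit 47 bp, with maxima of 932 and 736 bp. Both lay within 100 bp in 654 of 1013 members (64.6%, 61.6 to 67.4). In 94 members (9.28%) the entry's signal was below both replicate signals, and in 93 of those 94 a replicate summit was over 100 bp away, against 266 of the other 919 (28.9%). The entry at trn, a gene for a leucine-rich repeat adhesion protein, is an example, with an entry signal of 24.2, a replicate 1 signal of 64.6 whose summit was 233 bp away, and a replicate 2 signal of 25.8 whose summit was 39 bp away. Records were also shared: 199 members used a replicate 1 record that another member used too, and 213 did so for replicate 2.

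Few members appeared in the other thresholded sets, which come from the same reads. A summit of the pooled set lay within 100 bp of 164 members (16.2%, 14.0 to 18.6). For replicate 1's own set it was 85 (8.39%, 6.84 to 10.3) and for replicate 2's own set 18 (1.78%, 1.13 to 2.79). Only 3 members were in both replicates' own sets, and 827 (81.6%, 79.1 to 83.9) were in no thresholded set.

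All members were within 500 bp of a start by the rule, and 500 of 1013 members (49.4%) were within 100 bp of one. The share was 69.4% of 3192 conservative promoter peaks and 27.2% of 14966 promoter entries under 540. The choice of members used the distances to starts and to conservative summits, so these positions are a description with no test. Regions are not replicates, so the p-values below cover the number of regions and not the spread between embryo collections. Member summits had a median position 3 bp downstream of the nearest start (quartiles −92 and 120 bp), and 48.8% were upstream of it. Conservative promoter summits had a median of −34 bp, with 70.7% upstream, and entries under 540 a median of 58 bp downstream.

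**Figure D2:**
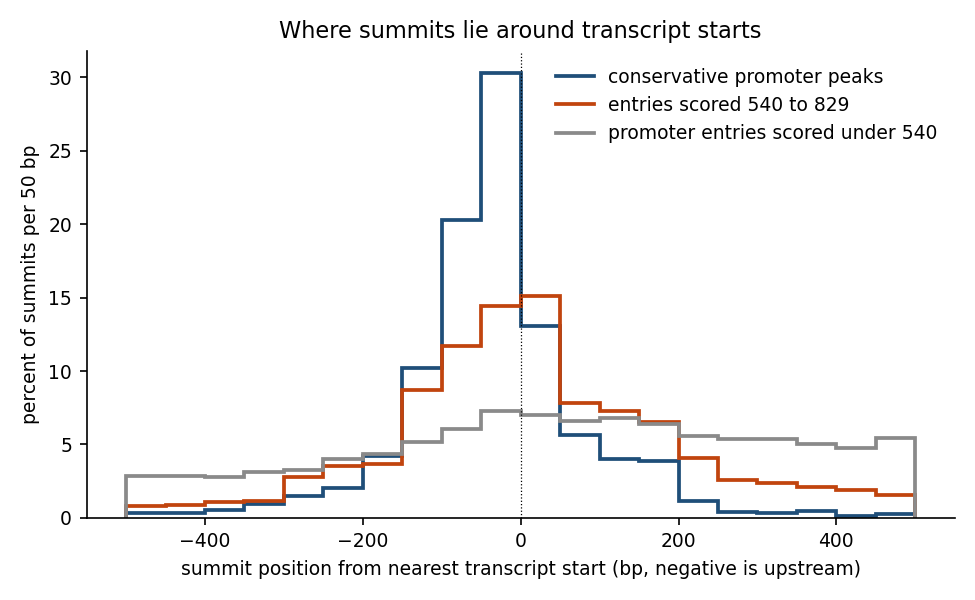
Percent of summits in each 50 bp step (vertical) by distance from the nearest transcript start (horizontal, bp, negative is upstream), for conservative promoter peaks (blue), promoter entries scored 540 to 829 (orange) and promoter entries under 540 (grey). The blue curve has a sharp maximum just upstream of the start, the grey curve is nearly flat, and the orange curve lies between them with its maximum across the start.

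Below the band, starts were much rarer. Of the 1983 entries scored 540 to 829 that lay over 500 bp from conservative summits, 51.1% (48.9 to 53.3) were at a start, against 15.5% of 99709 such entries under 540. Of the members, 325 members (32.1%) had their summit in a 5′ UTR, 207 (20.4%) in an intron, 132 (13%) in a coding exon and 291 (28.7%) between genes. Among conservative promoter peaks, 24.7% were in a 5′ UTR, 13.4% in an intron, 4.45% in a coding exon and 53.3% between genes.

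The nearest start belonged to a protein-coding gene in 930 members (91.8%), to a long non-coding or other ncRNA gene in 58, to a transfer RNA gene in 16 and to a small nucleolar RNA gene in 5. The strongest transfer RNA member was at tRNA:Pro-TGG-1-1 (53.9 in replicate 1, 24.9 in replicate 2). Members lay a median of 6843 bp from the nearest conservative summit, and 220 had another member within 500 bp, so that the 1013 entries formed 901 separate stretches. Head-to-head gene pairs, in which opposite starts lie within 1 kb, held 333 of the 943 members at coding starts (35.3%). The share was 47.6% of conservative promoter peaks (odds ratio 0.60, 0.52 to 0.70), 20.3% of entries under 540 (odds ratio 2.14, 1.86 to 2.47) and 31.3% of all 19276 coding starts. Entries within 500 bp of a conservative summit were left out of the members and of the entries under 540, which can remove entries at the partner start of such a pair. These shares are therefore a description with no test. With entries within 1000 bp of a conservative summit left out, the members' share was 31.9%.

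Known promoter sequences were sought within 100 bp of each summit on both strands, with exact letters. Matches of nested sequences overlap: TATCGATA contains TATCGA, whose reverse strand reads TCGATA and so contains CGATA, and CANNTG covers CAGCTG. Of the 16 motifs, 8 (50%) were more frequent and 2 (12.5%) less frequent in members than in windows centred 1000 bp to each side, at a Benjamini-Hochberg adjusted p under 0.05. Against conservative promoter peaks, 2 (12.5%) were more and 8 (50%) less frequent. Against promoter entries under 540, 7 (43.8%) were more and 2 (12.5%) less frequent. Members were chosen at starts and flanks were not, so the comparison with flanks also sets promoters against other sequence. Entries under 540 lay farther from starts, with 27.2% within 100 bp of one against 49.4% of members.

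The DRE set the members apart most clearly from the conservative promoter peaks. TATCGATA was in 35 member windows (3.46%, 2.49 to 4.77), in 0.839% of flanks, in 23.7% of conservative promoter peaks and in 0.829% of promoter entries under 540. The odds ratio was 0.12 (0.0815 to 0.16, Fisher's exact adjusted p = 9.93e-59) against the conservative peaks and 4.28 (2.93 to 6.27, adjusted p = 3.33e-10) against the entries under 540. Over all coding starts the share was 6.44%. The shorter core TATCGA was in 154 member windows (15.2%), 52.3% of conservative promoter peaks, 7.76% of entries under 540 and 20.2% of coding starts. The members' shares depended on the list used. With entries of the same score range taken from replicate 2's own list, the full DRE was in 10.8% and TATCGA in 25.4%, both above the shares of coding starts. Promoter peaks of replicate 2's own thresholded set held them in 30.1% and 63.2%, and the odds ratio for the full DRE against these was 0.28. From replicate 1's own list the members' shares were 4.99% and 17%, against 25.3% and 55.3% in promoter peaks of its own thresholded set. Within strata of similar GC content the DRE remained rarer in members than in conservative peaks, with an odds ratio of 0.16 (0.11 to 0.22). GC content itself differed, with medians of 45.8% in members, 39.8% in conservative promoter peaks and 46.3% in entries under 540.

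The members with the full DRE and the highest signals were at snRNP-U1-C, at Lsm10 (59.1 in replicate 1, 24.5 in replicate 2), at CG5126 (57.6 and 25.5), at CG13319 (69.3 and 24.0) and at chn (51.3 and 21.8). Lsm10 encodes a protein of the U7 particle that processes histone messages, and chn a zinc-finger regulator of sensory development. In all 5, replicate 1 was over 50 and replicate 2 under 26. Where members held a full DRE, its middle lay a median of 37.5 bp from the summit and 28 bp upstream of the start (−28, quartiles −63 and −7). In conservative promoter peaks it lay 26.5 bp from the summit and at −34 bp from the start.

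Motif 1 was raised in members against flanks and weaker entries, but its share was near the 5.68% of all coding starts. GGTCACAC was in 65 member windows (6.42%, 5.07 to 8.1), in 0.444% of the flanking windows (odds ratio 15.4, 7.62 to 31.0, adjusted p = 1.41e-21 by Fisher's exact test) and in 1.8% of promoter entries under 540 (odds ratio 3.73, 2.82 to 4.93, adjusted p = 4.71e-15). The share in conservative promoter peaks was 7.99%, a difference that missed the threshold (odds ratio 0.79, 0.60 to 1.05, Fisher's exact adjusted p = 0.15). Members outside the pooled set passed it (odds ratio 0.67, Fisher's exact adjusted p = 0.0272). Members drawn from the pooled list also passed it, set against promoter peaks of the pooled thresholded set (odds ratio 0.67, Fisher's exact adjusted p = 0.0269). The highest signals with this sequence were at Rcc1, the exchange factor of the GTPase Ran (68.9 in replicate 1, 22.6 in replicate 2), at CG6607 (67.4 and 25.8) and at CG46525 (57.0 and 22.9). At head-to-head starts 37 of 333 members (11.1%, 8.17 to 14.9) held it, and at other coding starts 28 of 610 (4.59%, 3.19 to 6.55). Conservative promoter peaks showed little split, with 8.72% of 1468 (7.38 to 10.3) and 7.73% of 1618 (6.52 to 9.13). The full DRE and motif 1 occurred in the same window in 2 members.

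GAGA factor sites were the most common of the 8 motifs raised against flanks. GAGAG was in 344 member windows (34.0%, 31.1 to 36.9), in 21.7% of the flanking windows (odds ratio 1.85, 1.57 to 2.19, adjusted p = 6.86e-12 by Fisher's exact test), 23.3% of conservative promoter peaks (odds ratio 1.69, 1.45 to 1.98, adjusted p = 1.52e-10) and 25.6% of promoter entries under 540 (odds ratio 1.5, 1.31 to 1.71, adjusted p = 4.58e-08). The difference from conservative promoter peaks was lost within GC strata (odds ratio 1.14, 0.97 to 1.34). The difference from weaker entries was lost when replicate 2's own list was used without replicate 1 (odds ratio 1.16, Fisher's exact adjusted p = 0.137). Windows with 3 or more matches made up 13% of members and 6.36% of conservative promoter peaks. In contrast to motif 1, GAGAG was in 76 of 333 members at head-to-head starts (22.8%) and in 237 of 610 at other coding starts (38.9%). Conservative promoter peaks had a split in the same direction, 15.7% of 1468 and 28.9% of 1618. GAGAG was in 32.8% of the 970 entries of the same score band away from starts, so a high GAGAG share was also found outside promoters. The DRE was in 0.722% and motif 1 in 0.309% of those 970 entries.

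**Figure D3:**
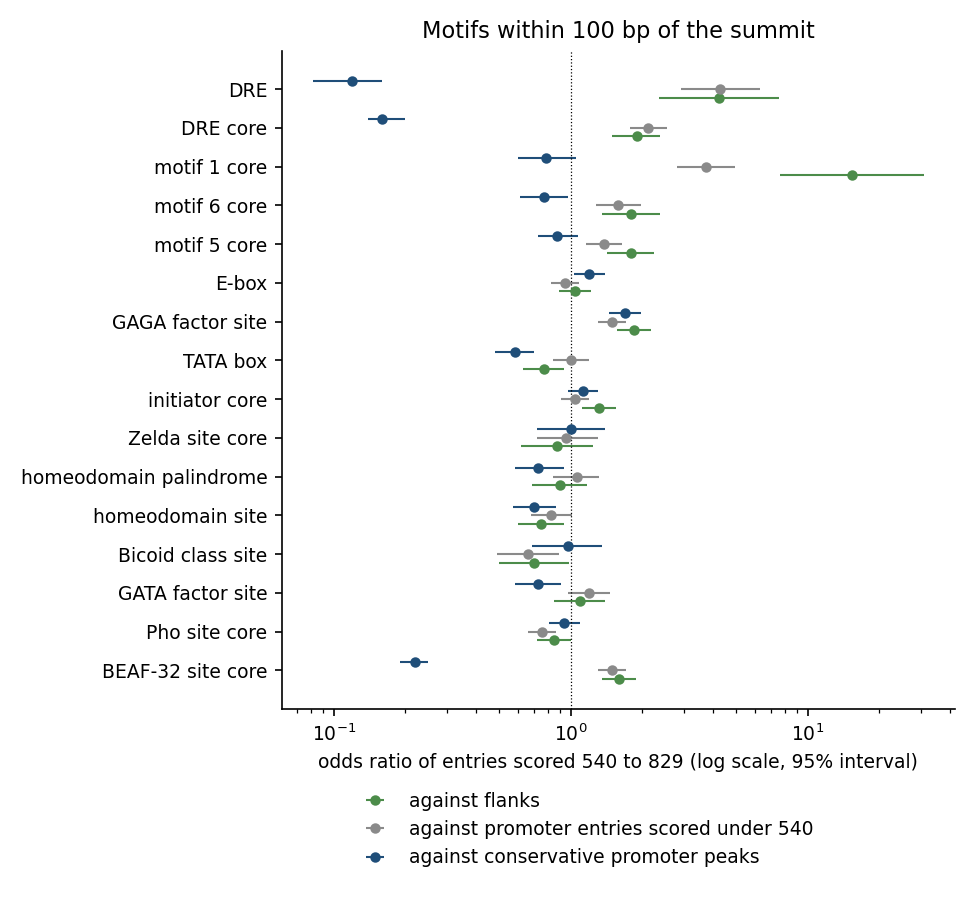
Odds ratio (horizontal, log scale, bars are Woolf 95% intervals) of each of the 16 motifs in promoter entries scored 540 to 829 against flanks (green), promoter entries under 540 (grey) and conservative promoter peaks (blue). DRE, DRE core and BEAF-32 core lie right of 1 against flanks and weaker entries and left of 1 against conservative peaks, whereas motif 1 lies right of 1 against the first pair and spans 1 against the conservative peaks.

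The TAAT sequences bound by homeodomain proteins were not raised. TAATTA, the palindromic form, was in 90 member windows (8.88%, 7.28 to 10.8), in 9.77% of the flanking windows (odds ratio 0.90, 0.69 to 1.17, adjusted p = 0.561 by Fisher's exact test) and in 8.46% of entries under 540 (odds ratio 1.06, 0.84 to 1.32, adjusted p = 0.733). It was in 11.7% of conservative promoter peaks, above the members (odds ratio 0.73, Fisher's exact adjusted p = 0.0227), a call kept in 9 of 14 alternatives, and within GC strata the direction turned (odds ratio 1.18, 0.91 to 1.52). TAATTG was in 119 windows (11.7%) against 15.1% of flanks (odds ratio 0.75, Fisher's exact adjusted p = 0.02), a call lost in 7 of 14 alternatives, among them GC strata (odds ratio 0.81, 0.64 to 1.03) and each replicate's own list (0.94 without replicate 2, 0.83 without replicate 1). TAATCC was in 4.64% of members, 6.52% of flanks (odds ratio 0.70, Fisher's exact adjusted p = 0.0595) and 4.79% of conservative promoter peaks (odds ratio 0.97). It was less frequent in members than in entries under 540 (6.9%, odds ratio 0.66, Fisher's exact adjusted p = 0.00778). The highest signals with TAATTA were at CG31715 (64.3 in replicate 1, 22.1 in replicate 2), at CG6607 and at Lsm10.

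Among the other motifs, CAGCTG was in 15.8% of members and 9.48% of the flanking windows (odds ratio 1.79, adjusted p = 1.71e-06 by Fisher's exact test), and GTATTTT, motif 6, in 9.58% and 5.58% (odds ratio 1.79, adjusted p = 0.000166). Over all coding starts the shares were 13.4% for CAGCTG, 10.6% for GTATTTT and 26.9% for TATAAA. The TATA box, TATAAA, was in 16.4% of members, the same share as in entries under 540, and in 25.2% of conservative promoter peaks (odds ratio 0.58, Fisher's exact adjusted p = 1.01e-08). The last difference was lost within GC strata (odds ratio 0.92, 0.75 to 1.12) and in windows centred on the start (0.85). It was also lost without replicate 1, where members from replicate 2's own list were set against its own thresholded promoter peaks (0.85). In that list the TATA box was more frequent in members than in entries under 540 (odds ratio 1.45, Fisher's exact adjusted p = 0.000484). In all, 373 members (36.8%, 33.9 to 39.8) held none of the DRE core, motif 1, GAGA factor, motif 5 and motif 6 sequences, against 21.3% of conservative promoter peaks and 55.4% of entries under 540.

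All 6-mers, each counted with its reverse complement, were compared in the same windows. Against flanks, 200 (9.62%) were more and 197 (9.47%) less frequent in members, and the 3 largest rises were CGCGCG (4.05% against 1.38%, odds ratio 3.01), CGCGAC (9.77% against 3.95%, odds ratio 2.63) and AGAGAG (19.2% against 8.49%, odds ratio 2.57, Fisher's exact adjusted p = 1.77e-13). Against conservative promoter peaks, 393 (18.9%) were more and 255 (12.3%) less frequent. The 3 largest falls, CGATAG (9.38% against 42.5%), ATCGAT (11.5% against 46.2%) and TATCGA, are all pieces of the DRE or its variants, and the leading rises, such as CCTCCG (7.31% against 2.69%), were rich in G and C.

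Along the ranked list the motifs changed at different places. The full DRE was in 0.738% of entries scored up to 99 and 3.36% of those from 400 to 539, and lay between 2.96% and 3.96% in each of 5 equal groups of members ordered by score. Conservative promoter peaks were ordered by signal into 5 equal groups, and it was in 4.54% (3.18 to 6.44) of the weakest group, then in 10.3%, 25.1%, 40.3% and 38.2%. The members' share lay near that of the weakest conservative peaks, and the larger DRE shares were in the stronger groups of the conservative set. Motif 1 was in 1.43% of the lowest score class, in 2.96% to 8.42% of the members' groups and in 5.48% of the weakest conservative group. GAGAG was in 30.5% to 38.1% of the members' groups, in 31.6% and 32.9% of the weaker pair of conservative groups and in 14.1% of the strongest. Median GC content moved with it, at 44.8%, 43.8%, 38.8%, 37.3% and 36.8% from the weakest to the strongest conservative group, and its part in these changes was not tested along the groups.

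**Figure D4:**
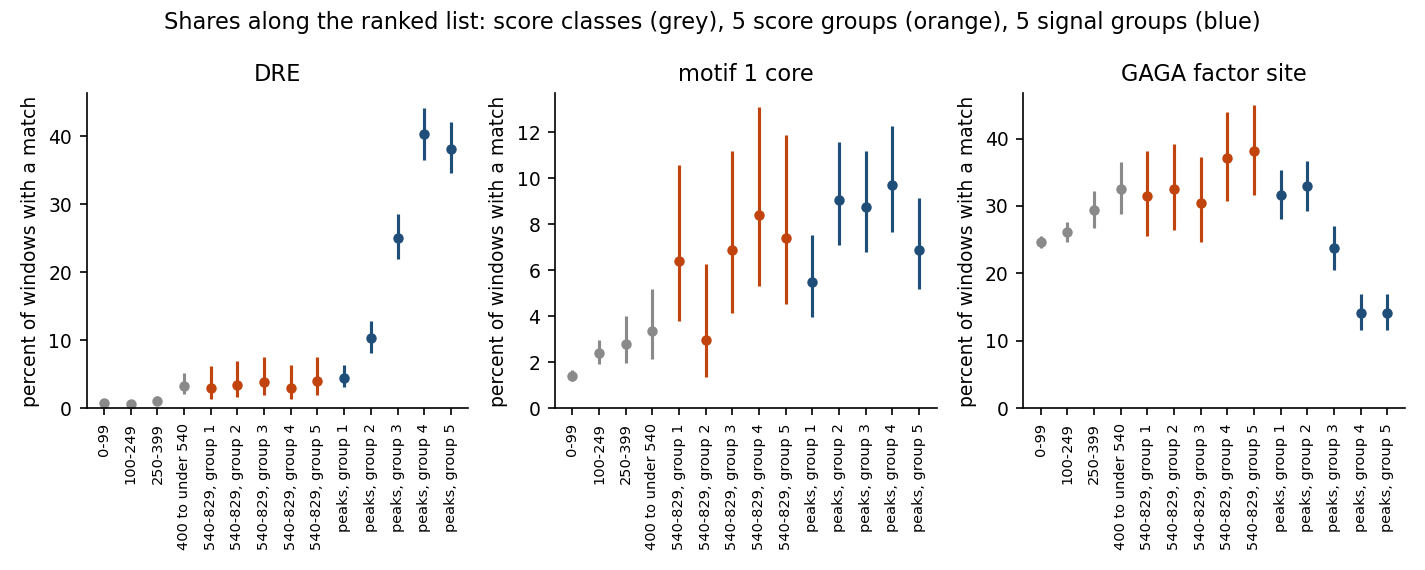
Percent of summit windows with a match (vertical, bars are Wilson 95% intervals) for the DRE, motif 1 and the GAGA factor site, in 4 score classes of entries under 540 (grey), 5 equal groups of the promoter entries scored 540 to 829 by score (orange) and 5 of conservative promoter peaks by signal (blue). The DRE climbs mainly among the blue groups, up to 40.3%, motif 1 is already near its upper range in orange, and the GAGA factor site falls to 14.1% in the strongest blue groups.

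The members touched 1001 protein-coding genes within 500 bp of one of their own starts, 7.17% of 13968, against 3696 (26.5%) for conservative summits. Of the 1001, 130 (13%) also had a conservative summit within 500 bp of one of their own starts. Gene lists are described by their counts beside the share of all coding genes, and no list was tested.

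Genes of cell growth and metabolism had members here and there. Cytosolic ribosomal proteins had 12 of 85 (14.1%, 8.26 to 23.1), mitochondrial ribosomal proteins 13 of 73 (17.8%, 10.7 to 28.1) and the nuclear-encoded respiratory chain 8 of 90 (8.89%, 4.57 to 16.6). Proteasome subunits had 2 of 48 (4.17%), translation initiation factors 1 of 44 (2.27%), tRNA synthetases, cytosolic and mitochondrial together, 4 of 31 (12.9%) and basal transcription factors 6 of 62 (9.68%). In each of these 7 lists more genes had a conservative summit, 38.9% to 52.3%. Examples are mRpL30 (62.1 in replicate 1, 23.8 in replicate 2), ND-B22, a subunit of complex I (74.6 and 23.6), and Rpn9, a lid subunit of the proteasome (30.8 and 30.1).

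Signalling and neural genes included several well-known regulators. The Notch pathway had 3 of 14 genes with a member, axon guidance and adhesion 3 of 23, synapse and neurotransmission 4 of 25, proneural and neuroblast fate 4 of 26, and segmentation 3 of 22. The synapse list had 1 gene with a conservative summit. At elav, the pan-neuronal RNA-binding protein gene, the signals were 51.7 in replicate 1 and 24.7 in replicate 2, with the replicate 1 summit 167 bp from the entry's. At the paired POU-domain genes nub and pdm2 they were 46.0 and 24.3, and 42.1 and 25.8. At brat, a translational repressor that limits neuroblast self-renewal, they were 43.9 and 26.3, and at nkd, a feedback inhibitor of Wingless signalling, 45.2 and 24.9. In all 5, replicate 1 was the higher and replicate 2 lay close to the median of the members. The pattern was not shared by every member of these lists. Replicate 2 was the higher at Sema1a, brp, Ten-m and hh.

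Motif counts at these genes are given for the lists combined. Of the 18 members at genes of the 5 signalling and neural lists, 13 held GAGAG, 0 held TATCGA and 0 held GGTCACAC. Of the 56 members at genes of the 7 growth and metabolism lists, 6 held GAGAG, 10 held TATCGA and 5 held GGTCACAC. Lists were combined after their values were seen, so these counts carry no test. Over all members the shares were 34.0% for GAGAG, 15.2% for TATCGA and 6.42% for GGTCACAC. The TATCGA and GGTCACAC counts of the growth and metabolism lists lie near those shares, and 18 members are too few to tell 0 from 6.42%. The 13 include the members at fng, elav, Ten-m, trn, nub, pdm2, brat, nkd and knrl.

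Other lists ranged from no gene to 26.9% of their genes. Chromatin and Polycomb or Trithorax genes had 7 of 26 (26.9%, 13.7 to 46.1), among them Su(z)12, a subunit of the Polycomb repressive complex that methylates histone H3 (41.4 in replicate 1, 22.8 in replicate 2), E(bx), a subunit of the NURF remodeller (64.4 and 23.7), and ash2 (37.2 and 24.9). Chaperones had 6 of 35 (17.1%), with Hsc70-3 at 46.5 and 25.9 and the chaperonin subunit gene CCT4 at 28.2 and 37.4. Cyclins, Cdks and replication genes had 3 of 25, led by CycD (36.1 and 25.5), and ubiquitin-conjugating enzymes 2 of 14. Cuticle proteins had 2 of 120 (1.67%, 0.458 to 5.87). Odorant and gustatory receptors had 0 of 119, the head gap and retinal determination list 0 of 20 and the Hox list 0 of 8, for which the intervals reach 3.13%, 16.1% and 32.4%.

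**Figure D5:**
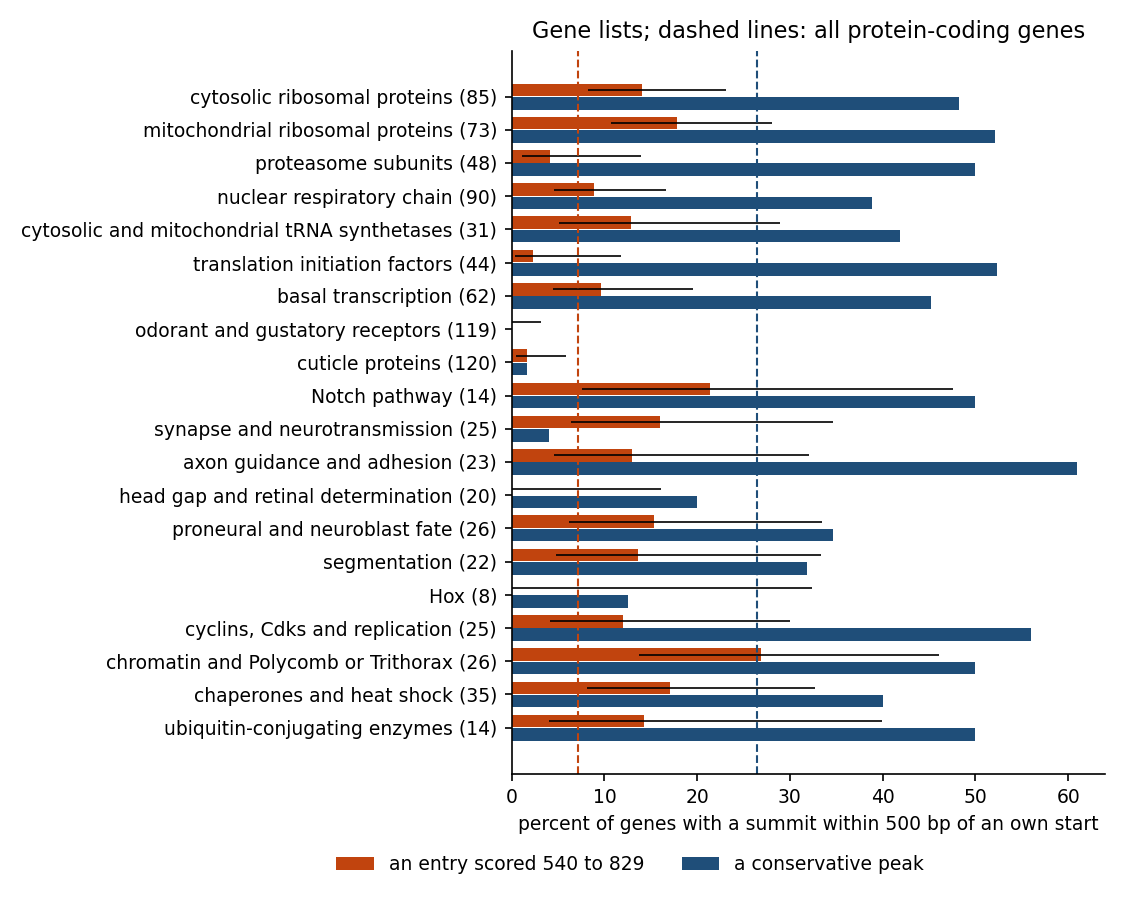
Percent of the genes of each list (number of genes in brackets) with a promoter entry scored 540 to 829 (orange, bars are Wilson 95% intervals) or a conservative summit (blue) within 500 bp of an own start. Dashed lines mark the shares of all protein-coding genes, 7.17% and 26.5%. The blue bar is the longer in most lists, the orange bar is the longer for synapse and neurotransmission, and the receptor list is empty.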

How the data were processed

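Peak files of 2 biological replicates were used. The authors made them from dm6 alignments that had been filtered, with 1 control file, and the thresholded sets also from a file of unstated kind, according to the README deposited with each sample. The sources used here name no aligner or peak caller; the control was not used here. The deposited score (up to 1000) follows the IDR, the deposited signal is the caller's enrichment value, and the deposited −log10 values are of the global IDR. Columns of the paired list were assigned to replicates by identical records in each replicate's own ranked file.

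Starts came from Ensembl release 115 models of the Release 6 assembly, without transposable elements. Computed here, with Python 3.11.15, pandas 2.3.3, scipy 1.17.1 and statsmodels 0.14.6, were distances, motif and 6-mer counts in windows of 100 bp to each side of a summit, Fisher's exact tests (2-sided, adjusted after Benjamini and Hochberg within the 16 motifs or the whole set of 6-mers), and Mantel-Haenszel odds ratios over GC strata of 5 percentage points. Promoter entries under 540 lay over 500 bp from conservative and member summits. Flanks overlap other genes, which makes p-values approximate. The procedures were tested on simulated data.

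Named members are, besides hbn, the 12 with the highest signal, those next to the band's edges, those with extreme replicate ratios, those of highest signal with a given motif, and up to 3 per gene list, each called by the gene of the nearest start or, for lists, by the list gene; Alg14, Lasp and c12.1 were picked for their sequences outside this rule, with values in view. The members, lists and motifs were chosen with earlier results of these data known. Coordinates are 1-based. A further sequence window is not reported here.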

Additional observations from a re-analysis of the deposited data

How the results depend on the processing

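Over 42 results and 491 recomputed values, 425 stayed the same. For odds ratios this meant the same direction and side of the threshold, for counts a value of similar size, and for shares a value inside the main Wilson interval. Against conservative promoter peaks, the share within 100 bp of a start (odds ratio 0.38 to 0.54) and at head-to-head starts (0.52 to 0.68) kept their direction under every alternative run. The choice of members used distances to starts and conservative summits, so both ranges are a description and not a test. Their 10 and 11 alternatives are counted among the 491 values. The full DRE also kept its direction, but its odds ratio moved from 0.12 to 0.28 without replicate 1, with the members' share at 10.8% in place of 3.46%. The pooled list was set against the pooled thresholded set in place of the conservative peaks. Without replicate 2 or without replicate 1, members and entries under 540 were taken from the other replicate's own ranked list, and its own thresholded peaks stood in for the conservative peaks. That gave, for motifs that turned direction, odds ratios against conservative peaks of 0.95 to 1.04 (GGTCACAC), 0.66 to 1.05 (GTATTTT) and 1.04 to 1.18 (CAGCTG), against flanks of 0.95 to 1.25 (TATAAA), and against entries under 540 of 1.08 to 1.45 (TATAAA), 0.96 to 1.14 (TAATTA) and 1.06 to 1.18 (TAATTG). Against entries under 540, TATAAA, with a main ratio of about 1, gave 1.01 with scores of 600 or more, 1.01 with coding starts, 1.11 in the pooled list, 1.01 with windows of 50 bp and 1.04 with windows of 200 bp, and TAATTA gave 0.96 with scores of 600 or more and 0.77 with windows of 50 bp. Within GC strata, the motifs called against conservative peaks fell to 3, and TAATTA turned to 1.07 against flanks and 1.18 against conservative peaks, and GTATTTT to 1.04 against the latter. With windows of 50 bp, 159 6-mers were called against flanks and 300 against conservative peaks. By any overlap of 1 bp, 11.4% of members were in replicate 1's own set. Alternatives chosen after seeing the data were members with both replicate summits within 100 bp (654), members outside the pooled set (TATAAA 1.02 against entries under 540), flanks away from starts and peaks, and windows centred on the start, which gave 1.13 for GGTCACAC and 1.23 for GTATTTT against conservative peaks. The causes were not tested. No paired analysis was possible because the series has a single group. Depth is unknown, which limits the reading of weak signals.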
